A study of Mus musculus with 4 samples.

Results

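The 10 neutrophil granule and maturation genes Ltf, Camp, Ngp, Lcn2, Retnlg, Cd177, Wfdc21, Pglyrp1, G0s2 and Hcar2 were followed in single cells of mouse 4T1 breast tumours. They were chosen by their symbols, and each was found as 1 row among the 55450 genes of the count table. 4T1 is an established mouse mammary carcinoma cell line. In each animal 1000000 of these cells in 25 μl PBS had been placed in the right flank of a female BALB/c mouse aged 6 to 8 weeks. PBS or TIOs, the T cell inspired oncolytic nanosystem, was given by vein on day 7. Near-infrared light of 980 nm was applied on days 8, 9 and 10, each time for 5 min at 1.0 W per square centimetre, and tumours were taken on day 13, so every group carried the light. The labels give 2 samples to PBS and 1 to TIOs+NIR3. The remaining sample was left without a group, since its title names PBS and its protocol names TIOs. CD45+ leucocytes were sorted, and the transcripts were counted by 10x Genomics sequencing from their 3′ ends.

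The barcodes fall into 4 libraries, called libraries 1 to 4, and no source used here ties a library to a sample. Each is therefore a sample of unknown treatment. PBS and TIOs+NIR3 were not compared, no p-value was computed, and the spread over libraries mixes treatment with everything else that differed between them. The libraries held 69255999 to 108646352 UMIs (unique molecular identifiers, each counting 1 captured transcript). Of 33064 barcodes, 32133 had at least 300 genes and at most 15% mitochondrial UMIs. Neutrophils were taken as cells with S100a8 and S100a9 at 1% or more of UMIs, at least 1 Csf3r UMI and no Ly6c2 UMI. This gate gave 457, 1995, 1671 and 1267 neutrophils in libraries 1 to 4, or 5390 in all, which were 5.82% to 24.6% of the kept cells. Their median depth was 1842 UMIs, against 8393 in monocytes, 10362 in macrophages and 4662 in T cells. Between 11 and 23 barcodes were shared by each pair of libraries, and over the 6 pairs neutrophils shared 2. Library 1 stood apart: it held 2975 of the 3189 tumour-gated cells, although the sort was for CD45+. Libraries 2, 3 and 4 held 1211, 945 and 482 of the 2704 fibroblast-gated cells, which also lie outside such a sort, and library 1 held 66. Among neutrophil markers that the gate did not use, Cxcr2 was at 246 to 1048 CPM (counts per 1000000 UMIs) and Il1r2 at 640 to 1381 CPM in the gated cells. Ly6g, the usual surface marker of mouse neutrophils, had a UMI in 3.81% to 8.10% of them.

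Neutrophils fill their granules in order while they mature in the bone marrow. Primary granules with Mpo and Elane come first, specific granules with Ltf, Camp, Ngp and Lcn2 follow at the myelocyte stage, and gelatinase granules with Mmp9 come later. The transcripts of the early granules are shut off before the cell enters the blood, while the proteins stay in the granules. Among the members, Ltf encodes lactoferrin, which binds iron, Camp the cathelicidin antimicrobial peptide, and Ngp the neutrophilic granule protein. Lcn2 encodes a lipocalin that captures bacterial siderophores, and Pglyrp1 a protein that binds peptidoglycan. Retnlg and Wfdc21 encode small secreted proteins, and Cd177 a surface glycoprotein that binds Pecam1. G0s2 encodes an inhibitor of the lipase Pnpla2, and Hcar2 a receptor for hydroxybutyrate and niacin.

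Ltf, Camp and Ngp lie on chromosome 9 of GRCm38 and share a stretch of 1195389 bases (chr9:109847379-111042767) with 28 other protein-coding genes. Their promoters are shown because few neutrophils held their UMIs, and that of Cd177 because it alone among the members with a RefSeq promoter held all motifs searched. Each runs 5′ to 3′ along the gene from 250 bases before the start site to 50 bases after it. Capitals mark TTNCNNAA, a pattern of C/EBP sites, GGAAGT, a pattern of Ets sites such as those of PU.1, and TATAAA, the TATA box, on either strand.
Ltf (GRCm38.p6, chr9:111019042-111019341, plus strand): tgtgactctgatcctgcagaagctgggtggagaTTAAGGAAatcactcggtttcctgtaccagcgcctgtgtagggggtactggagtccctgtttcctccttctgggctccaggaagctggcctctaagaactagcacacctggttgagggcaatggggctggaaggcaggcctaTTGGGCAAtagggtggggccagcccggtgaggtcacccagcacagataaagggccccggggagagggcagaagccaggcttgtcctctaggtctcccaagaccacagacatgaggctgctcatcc
Camp (GRCm38.p6, chr9:109849407-109849706, minus strand): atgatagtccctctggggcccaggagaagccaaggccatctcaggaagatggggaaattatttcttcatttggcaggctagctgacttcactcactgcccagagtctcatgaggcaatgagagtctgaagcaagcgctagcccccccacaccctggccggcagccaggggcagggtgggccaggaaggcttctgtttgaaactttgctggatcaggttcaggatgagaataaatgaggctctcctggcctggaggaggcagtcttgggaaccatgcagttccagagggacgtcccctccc
Ngp (GRCm38.p6, chr9:110419558-110419857, plus strand): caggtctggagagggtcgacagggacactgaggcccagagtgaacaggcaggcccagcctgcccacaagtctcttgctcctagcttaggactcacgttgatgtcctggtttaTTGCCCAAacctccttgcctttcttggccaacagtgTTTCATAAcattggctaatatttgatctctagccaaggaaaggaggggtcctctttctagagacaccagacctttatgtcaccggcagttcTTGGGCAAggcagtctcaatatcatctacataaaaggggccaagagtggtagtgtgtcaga
Cd177 (GRCm38.p6, chr7:24760262-24760561, minus strand): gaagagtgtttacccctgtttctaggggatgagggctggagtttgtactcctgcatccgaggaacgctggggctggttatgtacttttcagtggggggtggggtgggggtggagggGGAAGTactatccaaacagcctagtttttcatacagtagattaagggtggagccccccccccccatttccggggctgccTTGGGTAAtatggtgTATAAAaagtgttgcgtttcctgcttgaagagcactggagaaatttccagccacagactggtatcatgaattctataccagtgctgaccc
RefSeq held promoters for 8 of the 10 members, and TTNCNNAA was in 5 of these, against 40.7% of all 32851 promoters of this length. The Ngp promoter held 3 matches, at -138, -102 and -11 from the start site, and the Ltf promoter 2, at -217 and -75. The Camp promoter held none of the 3 patterns. GGAAGT and TATAAA were each in 1 of the 8, that of Cd177, against 23.8% and 13.6% of all promoters. These matches are letters in a window and were not tied to binding.

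After each cell was thinned to 1000 UMIs, G0s2 and Hcar2 had a UMI in most neutrophils of every library. Lcn2, Wfdc21, Pglyrp1 and Retnlg were found in smaller shares. G0s2 had a UMI in 72.4%, 86.9%, 77.2% and 69.6% of the thinned neutrophils of libraries 1 to 4. Hcar2 had a UMI in 70.1%, 61.3%, 65.9% and 58.3% and Lcn2 in 52.2%, 51.0%, 54.6% and 42.1%. Wfdc21 was found in 52.7%, 39.3%, 40.7% and 34.7% of the thinned neutrophils. Without thinning the shares ran from 27.5% (Retnlg, library 2) to 90.5% (G0s2, library 2). Pglyrp1 was found in 34.8%, 20.6%, 22.4% and 34.2% of the thinned neutrophils, and Retnlg in 55.5%, 20.4%, 32.6% and 34.0%. In T cells, taken as the comparison for free RNA, thinned shares were 0% to 2.04% for Retnlg, 1.02% to 6.60% for G0s2 and 1.02% to 2.90% for Hcar2. For Lcn2 they were 2.52% to 13.3%, and for Wfdc21 0.602% to 2.04%. Pglyrp1, which is described in lymphocytes further on, had a UMI in 17.5%, 9.18%, 4.49% and 3.14% of the thinned T cells.

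Levels are given as CPM of the summed UMIs of a library's neutrophils, with 95% Poisson intervals that cover counting error only. Hcar2 was the most even member, at 1435 CPM (1369 to 1504) in library 1, 1470 (1436 to 1504) in library 2, 1486 (1449 to 1524) in library 3 and 1386 (1340 to 1433) in library 4. Ordered by level, as libraries 3, 2, 1 and 4, neighbours had overlapping intervals, but library 4 did not overlap libraries 2 and 3. The highest library was 1.07 times the lowest. G0s2 stood at 5425 CPM in library 1, 7538 in library 2, 5842 in library 3 and 3970 in library 4, in intervals that did not overlap. Its highest level was 1.90 times its lowest. Lamb3 overlaps G0s2 on the other strand and had 4840 UMIs in all kept cells. No source used here states how strand was used in counting.

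Retnlg varied 8.11-fold over the libraries. It was at 5026 CPM (4901 to 5154) in library 1, 620 (598 to 642) in library 2, 1560 (1522 to 1598) in library 3 and 1473 (1426 to 1522) in library 4. Library 1 was far above the other libraries and library 2 the lowest, and none of these intervals overlapped. Thinned to 1000 UMIs, Retnlg had a UMI in 55.5%, 20.4%, 32.6% and 34.0% of neutrophils. The 10 richest cells held 33.0%, 24.3%, 20.2% and 19.3% of the Retnlg UMIs of neutrophils in libraries 1 to 4.

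Lcn2 followed another order, with 1723 CPM in library 1, 3227 in library 2, 2315 in library 3 and 1296 in library 4. All 4 intervals were apart, and library 2 was 2.49 times library 4. The summed tumour markers (5 genes) in the same neutrophils were at 1633 CPM in library 1, 103 in library 2, 6.54 in library 3 and 2.83 in library 4. The 4 fibroblast markers summed to 141, 8053, 2002 and 1460 CPM. Macrophage markers (6 genes) summed to 1637, 411, 127 and 296 CPM, and dendritic cell markers (5 genes) to 771, 142, 192 and 149 CPM. Of the neutrophils of libraries 1 to 4, 33, 54, 27 and 8 also passed the gate of another cell type. The part of these other cells in the levels of neutrophils was not tested.

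Pglyrp1 was at 711 CPM in library 1, 233 in library 2, 278 in library 3 and 536 in library 4, without overlap. Wfdc21 was at 1214, 779, 760 and 577 CPM, where libraries 2 and 3 overlapped. Cd177 was scarce, at 84.1 CPM (68.6 to 102) in library 1, 18.8 (15.2 to 23.1) in library 2, 13.8 (10.5 to 17.9) in library 3 and 13.7 (9.51 to 19.2) in library 4. Library 1 was again the highest for Pglyrp1, Wfdc21 and Cd177, and the last 3 libraries of Cd177 overlapped with their neighbours.

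**Figure D1:**
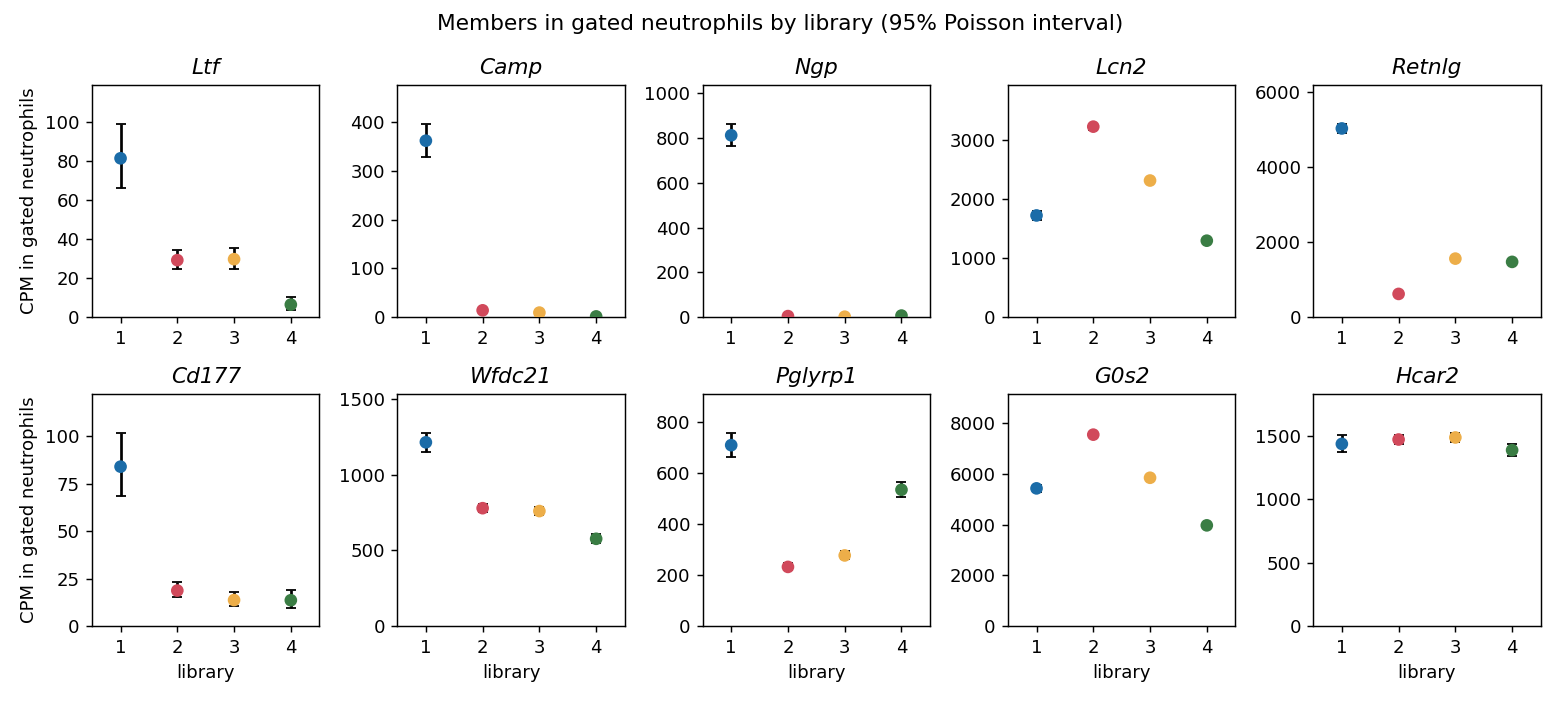
Level of each member (CPM of summed UMIs, y axis from 0) in the gated neutrophils of libraries 1 to 4 (x axis), with 95% Poisson intervals as bars. Hcar2 sits between 1386 and 1486 CPM in every library, while Retnlg runs from 620 in library 2 to 5026 in library 1 and Ngp from 2.18 to 813.

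Ltf, Camp and Ngp were rare in neutrophils, and what was found in library 1 lay in very few cells. Ltf was at 81.6 CPM (66.3 to 99.4) in library 1, 29.3 (24.7 to 34.5) in library 2, 29.8 (24.8 to 35.6) in library 3 and 6.46 (3.69 to 10.5) in library 4. Camp was at 362 CPM (329 to 397), 14.1 (11.0 to 17.9), 9.45 (6.72 to 12.9) and 1.62 (0.440 to 4.14) in the same order. Ngp was at 813 CPM (763 to 865), 4.91 (3.15 to 7.31), 2.18 (0.997 to 4.14) and 7.27 (4.31 to 11.5). Libraries 2 and 3 overlapped for each of these genes. A single neutrophil of library 1 held 1018 of the 1524 UMIs of the 3 genes in that library. Without this cell Ltf was at 32.4 CPM in library 1, close to libraries 2 and 3, Camp at 34.1 and Ngp at 354, whereas Retnlg was at 5057. A single cell also held 28 of the 69 Camp UMIs of library 2, and without it Camp was at 8.39 CPM. In library 4 a single cell held 11 of the 18 Ngp UMIs, and without it Ngp was at 2.83 CPM. The 10 richest cells held 95.1% of these UMIs in library 1, 31.4% in library 2, 23.4% in library 3 and 52.6% in library 4.

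**Figure D2:**
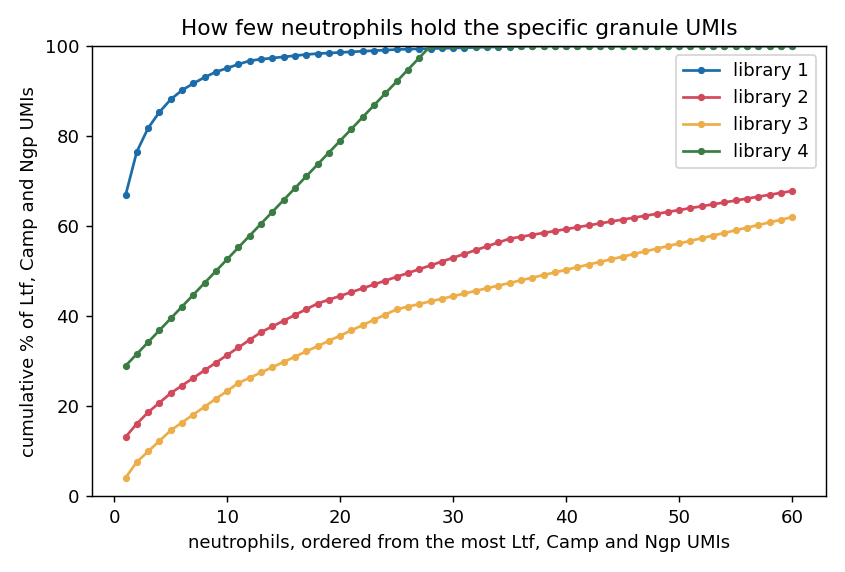
Cumulative share of the Ltf, Camp and Ngp UMIs (y axis, %) over a library's neutrophils ordered from the richest (x axis, the first 60 cells), with 1 line a library. In library 1 the first cell holds 1018 of 1524 UMIs and 10 cells 95.1%, while in library 3 the 10 richest cells hold 23.4%.

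After thinning to 1000 UMIs, 19 of 402 neutrophils of library 1 (4.73%, exact 95% binomial interval 2.87 to 7.28) had a UMI of Ltf, Camp or Ngp. The share was 4.28% (3.42 to 5.29; 82 of 1915) in library 2, 4.10% (3.19 to 5.19; 66 of 1608) in library 3 and 1.46% (0.867 to 2.30; 18 of 1234) in library 4. Libraries 1 to 3 had overlapping intervals and library 4 was below them. The gene that was found differed: 17 of the 19 cells of library 1 had Ngp, whereas Ltf was in 59 of 82 in library 2 and in 48 of 66 in library 3. At least 2 UMIs were seen in 10, 11, 6 and 1 of these cells. Over all libraries, thinned shares of Ltf, Camp and Ngp were 2.35%, 0.737% and 0.659% in neutrophils. They were 0.207%, 0.103% and 0.207% in T cells and 0.227%, 0.566% and 0.0378% in fibroblast-gated cells. The part of free RNA in the shares of neutrophils was not tested. No primary granule gene was abundant in the neutrophils. Mpo was at 0 to 7.67 CPM, Elane at 0 to 0.242, Ctsg at 0 to 31.5 and Prtn3 at 4.30 to 14.8. In library 4 the 19 Mpo UMIs lay in 1 cell, and so did the 78 Ctsg UMIs. Fcnb, another early granule gene, was at 0 to 1.65 CPM, and Gfi1, a transcription factor of granulocyte precursors, at 0 to 1.21. In the gated neutrophils Cxcr2, the chemokine receptor of circulating neutrophils, was at 246 to 1048 CPM, Il1b at 8222 to 14050 and Mmp9 at 268 to 1046 CPM.

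Cells rich in Ltf, Camp and Ngp carried a different mixture of the other members. To see them, all cells with S100a8 and S100a9 at 1% or more were taken, whatever their Csf3r and Ly6c2, and ordered by the share of UMIs from the 3 genes. These bins were chosen after the values were seen and are described without a test. In library 1, 804 cells had none, 40 were under 0.2%, 10 were at 0.2% to 2% and 7 at 2% or more. The lowest of the 7 was at 2.74% and the next cell at 1.85%, and 4 cells lay between 1% and 3%. The bins also differed in depth, with medians of 1555, 2955.5, 5205.5 and 6820 UMIs per cell. The tumour marker Epcam was at 141, 446, 54.3 and 259 CPM in the same order. The part of depth and of tumour RNA in the values of the bins was not tested. Lcn2 was at 840 CPM in cells with none, 1981 in the second bin, 7674 in the third and 13936 in the richest cells. Wfdc21 was at 616, 1272, 3420 and 5782 CPM and Pglyrp1 at 316, 797, 2733 and 3688 CPM, both higher in each richer bin. Retnlg took another course, at 1825, 7394, 28613 and 2971 CPM, so that it was highest in the cells with 0.2% to 2%. Cd177 stood at 21.6, 117, 652 and 538 CPM. Hcar2 was lower in each richer bin, at 1396, 519, 308 and 19.9 CPM, and the 7 richest cells held 1 Hcar2 UMI in all. G0s2 was at 4150, 2851, 4669 and 1236 CPM. Il1b, which encodes a cytokine of activated neutrophils, was at 6724, 3604, 3258 and 140 CPM, and Ly6g at 16.0, 154, 452 and 1436.

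The 7 richest cells had 5528 to 9510 UMIs each, with 10 to 60 Ltf UMIs, 19 to 398 Camp UMIs and 159 to 560 Ngp UMIs per cell. Retnlg ranged from 1 to 98 UMIs with a median of 10, and Lcn2 from 36 to 177. S100a8 had 544 to 1653 UMIs in each. Chil3, a gene of immature granulocytes and monocytes, had 0 to 47. Mki67, a marker of dividing cells, had a UMI in 2 of the 7, with 11 UMIs in 1 of them and 1 in the other. Epcam, a tumour marker, had a UMI in 4, with 10 UMIs in 1 of them and 1 in each of the others. The cell with 10 Epcam UMIs was that with 1 Mki67 UMI. Whether some of the 7 cells were doublets was not tested. Only 1 of the 7 passed the neutrophil gate, against 9 of the 10 cells in the next bin. Csf3r was at 59.8 CPM in the 7 cells, against 525 in the 10 and 367 in cells with none.

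**Figure D3:**
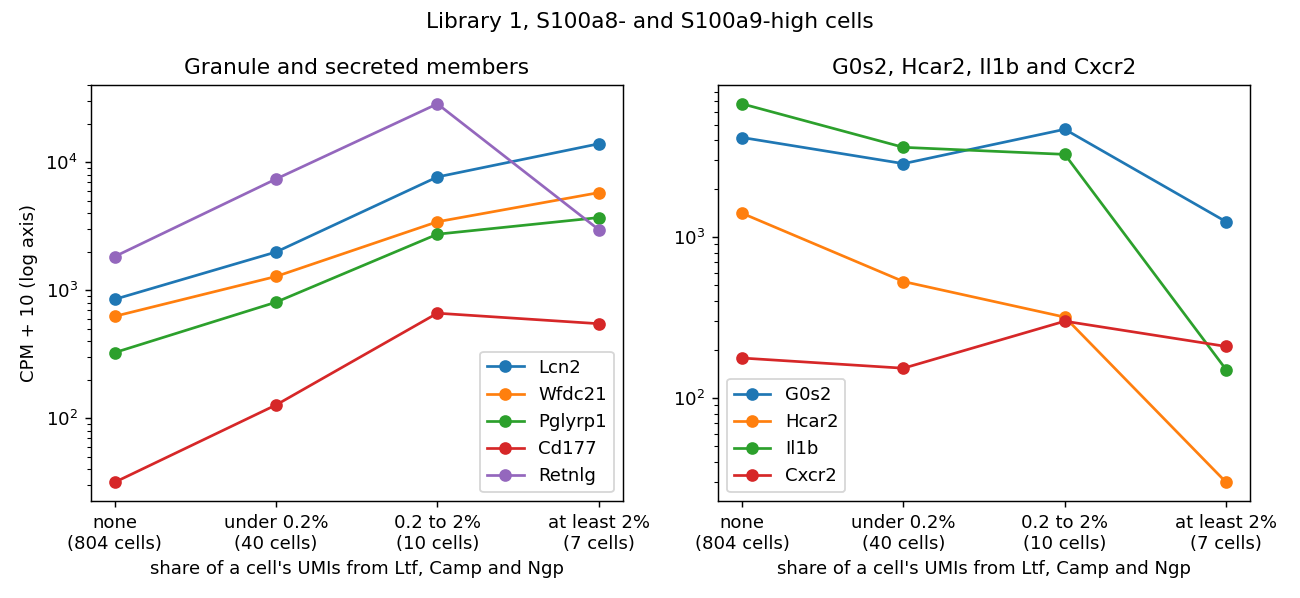
CPM + 10 on a log axis for members and for Il1b and Cxcr2 in library 1 cells with S100a8 and S100a9 at 1% or more, by the share of a cell's UMIs from Ltf, Camp and Ngp (x axis, with the number of cells). Lcn2 climbs from 840 to 13936 CPM, Retnlg peaks at 28613 in the third bin, and Hcar2 and Il1b are lowest in the 7 richest cells.

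No cell reached 2% in libraries 2 to 4. Their cells at 0.2% to 2% numbered 13, 5 and 2. Lcn2 in these was at 16282 CPM against 3753 in cells with none in library 2, at 4259 against 2631 in library 3 (28 UMIs in the 5 cells) and at 4581 against 1155 in library 4 (14 UMIs in the 2 cells). In the bin under 0.2% Lcn2 was at 7954 CPM in library 2 and 2571 in library 4, above cells with none, but at 2276 in library 3, below them. In the cells at 0.2% to 2%, Retnlg was not raised over cells with none. It was at 83.5 against 632 CPM in library 2 (2 UMIs) and 654 against 1152 CPM in library 4 (2 UMIs). In library 3 it had no UMI, against 1639 CPM. Hcar2 in the cells at 0.2% to 2% was at 2004 against 1569 CPM, 1977 against 1488 and 982 against 1117. The values of Lcn2, Retnlg and Hcar2 in these cells rest on few cells, and their difference from library 1 was not tested.

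Neutrophils with and without a thinned UMI of Ltf, Camp or Ngp were compared in libraries 2 and 3, the only libraries with at least 50 positive cells. A gene was called when it differed at least 2-fold the same way in both, after adding 10 CPM. Of 6765 genes, 0.340% (23) were called higher and 3.03% (205) lower, and of the 7 other members none was called in either direction. Lcn2 was at 9817 CPM in positive and 3146 in negative neutrophils of library 2, a log2 difference of 1.64, but at 2333 and 2303 in library 3, a log2 difference of 0.02. Without neutrophils that also passed another gate, Lcn2 in library 2 was at 9812 against 3125 CPM. Retnlg was at 439 against 706 CPM in library 2 and at 1424 against 1678 in library 3, lower in the positive cells of both by less than 2-fold. G0s2 was lower by less than 2-fold too, at 6000 against 9242 and 5864 against 6466 CPM. Wfdc21 and Hcar2 were higher in library 2 (log2 differences of 0.72 and 0.62) and lower in library 3 (-0.43 and -0.04). Of the genes on the fixed lists, none was called among 5 specific granule, 6 gelatinase granule and surface, 6 late maturation and 10 tumour-activated genes tested.

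The genes called rested on few UMIs. Positive cells were far fewer than negative cells, 82 against 1833 in library 2 and 66 against 1542 in library 3, so raw UMIs are not comparable between them. The 10 with the largest smaller-library rise were Rhof, Nkapd1, Parl, Gpr108, Rnf31, Thap1, U2surp, Vipas39, Phactr4 and Osmr. They had 2 to 10 UMIs in the positive cells of a library, as in Rhof with 3 against 15 in library 2 and 3 against 13 in library 3. In CPM, Rhof was at 36.6 against 8.18 in library 2 and 45.5 against 8.43 in library 3. The 10 with the largest fall were Rnf10, Pan3, Arg1, Arid1b, Ccno, 1110004F10Rik, Tgif2, Entpd3, Rbbp8 and Emc3, with 0 or 1 UMI in the positive cells. Arg1, the arginine-degrading arginase of myeloid cells, had 1 UMI in positive against 156 in negative neutrophils of library 2, or 12.2 against 85.1 CPM. In library 3 it had 0 against 52 UMIs, or 0 against 33.7 CPM. With 50 CPM added, 0 genes were called higher and 1 lower.

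Members were next compared between neutrophils and the other gated types, where a member was called if its level was at least 4-fold higher in neutrophils in every library with 50 or more cells of the type, after adding 10 CPM. Against macrophages in 4 libraries, 6 of 10 members were called, where 0.688% of 12929 genes were. Against monocytes in libraries 2 to 4 it was the same count of 6, where 0.709% of 13258 genes were called, and against T cells in 4 libraries 6, where 1.53% of 11986 were. Against tumour cells in libraries 1 and 2 it was 5, where 2.39% of 13799 genes were called. Retnlg, Wfdc21, Pglyrp1, G0s2 and Hcar2 were called against each of the 4 types compared (monocytes, macrophages, T cells and tumour cells) and Lcn2 against the first 3 of them. The median over the members of the smallest log2 difference was 3.31 for monocytes and 3.04 for macrophages, beside -0.45 and -0.59 over all genes tested. These genes were chosen as neutrophil genes, and the counts describe them.

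G0s2 stood 6.20 to 7.48 log2 units above macrophages and 4.47 to 5.96 above monocytes. Retnlg was 4.34 to 7.89 above macrophages and 5.38 to 7.79 above T cells, and Hcar2 3.80 to 4.87 above monocytes. Ltf, Camp and Ngp missed the call in libraries 2 to 4, where Camp and Ngp were close to or below the 10 CPM added. Ltf was 1.83 and 1.99 log2 units above macrophages in libraries 2 and 3, just short of 4-fold, and 0.72 in library 4. In library 1 Ltf, Camp and Ngp were 3.10, 5.15 and 6.06 log2 units above macrophages. No Ngp UMI was found in 3558 monocyte-gated cells, which allows a share of cells with a UMI of up to 0.0843%. Of the other lists, all 6 late maturation genes were called against T cells and 5 of 6 against macrophages, among them Cxcr2 and Trem1. Chil3, a specific granule list gene that monocytes also express, was called lower in neutrophils than in monocytes.

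**Figure D4:**
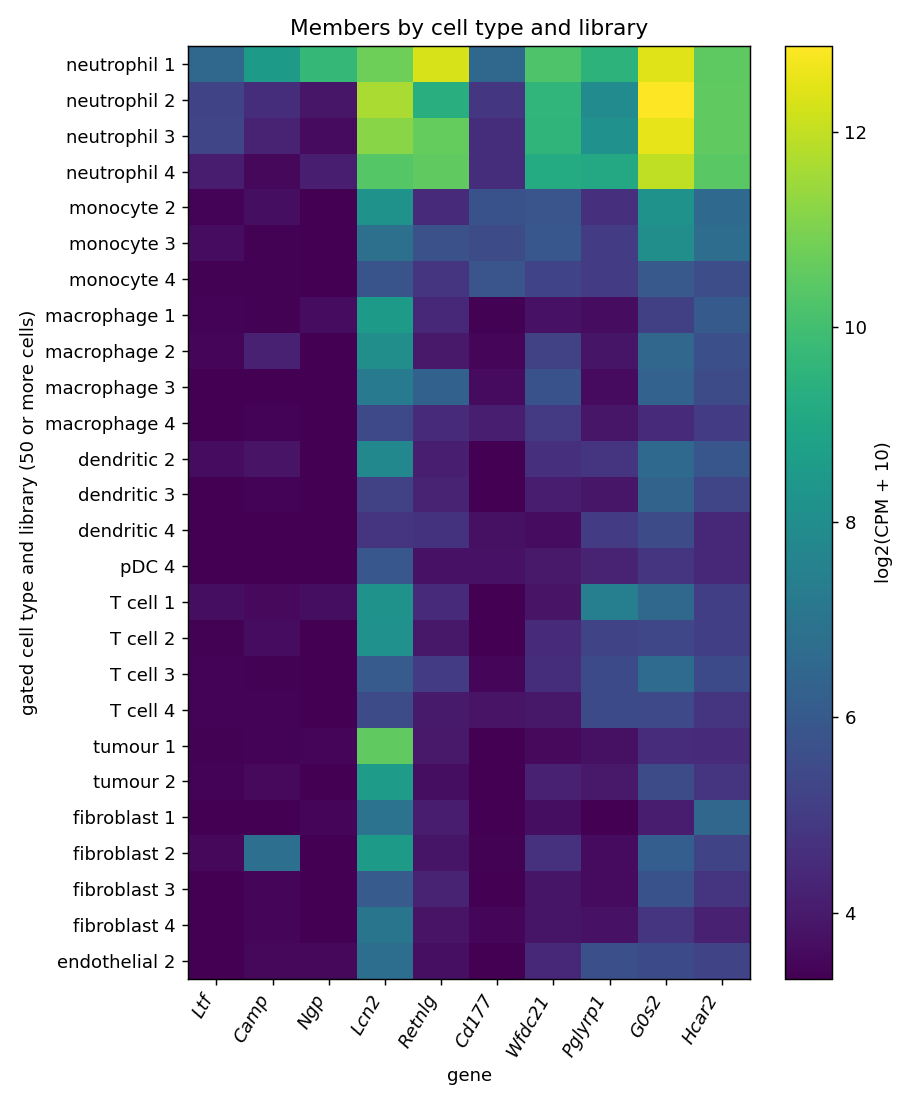
log2(CPM + 10) of the 10 members (x axis) in each gated cell type and library with 50 or more cells (y axis), with brighter colours for higher levels. The neutrophil rows are bright for G0s2, Retnlg, Hcar2, Lcn2, Wfdc21 and Pglyrp1, tumour cells for Lcn2, and Camp is visible in fibroblast-gated cells of library 2 at 103 CPM.

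Lcn2 was also a tumour cell transcript. It was at 1478 CPM (1468 to 1487) in the tumour-gated cells of library 1 against 1723 in its neutrophils, a log2 difference of 0.22, and at 377 against 3227 CPM in library 2, a log2 difference of 3.06. Which type held more Lcn2 UMIs depended on the library: tumour-gated cells had 85760 and neutrophils 2090 in library 1, against 3001 and 15772 in library 2. Without library 1, 3.01% of Lcn2 UMIs lay in tumour-gated cells and 28.6% in neutrophils, values chosen after seeing the data. Fibroblast-gated cells held 8896 Lcn2 UMIs in library 2, 1757 in library 3 and 1628 in library 4, against 86 in library 1. Over all libraries the fibroblast-gated cells were at 178 CPM, a value that pools unlike libraries. In library 2 their Lcn2 UMIs outnumbered those of S100a8 (4523, at 183 CPM), so Lcn2 lay above the pooled value there. In libraries 3 and 4 Lcn2 UMIs were fewer than those of S100a8 (4768 and 1907, at 155 and 141 CPM). Thinned to 1000 UMIs, 49.2% of tumour cells of library 1 had an Lcn2 UMI. In macrophages Lcn2 was at 364, 255, 142 and 33.1 CPM in libraries 1 to 4, and in T cells at 292, 278, 57.6 and 35.5. Per UMI of Krt18, a keratin of the tumour cells, library 1 had 0.422 Lcn2 UMIs in tumour cells, 0.389 in macrophages, 0.343 in T cells and 2.11 in neutrophils. In library 2 the ratio was 0.346 in tumour cells, 0.985 in T cells, 3.19 in macrophages, 4.96 in monocytes and 119 in neutrophils.

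Cd177 was higher in monocytes than in neutrophils. In libraries 2, 3 and 4 the monocytes were at 42.7 (33.7 to 53.2), 35.6 (29.2 to 43.1) and 47.6 CPM (lower bound 45.2), against 18.8, 13.8 and 13.7 in neutrophils, and the intervals did not overlap. The log2 differences, neutrophil minus monocyte, were -0.87, -0.94 and -1.28. Thinned to 1000 UMIs, 6.30%, 3.66% and 6.21% of the monocytes had a Cd177 UMI against 1.51%, 1.24% and 1.46% of the neutrophils. Library 1 had only 43 monocytes, at 8.43 CPM (2 UMIs) against 84.1 in neutrophils. Of Cd177 UMIs, 1509 of the 1695 in monocytes came from library 4, and without that library monocytes held 26.8% (23.5 to 30.3) and neutrophils 36.2% (32.6 to 39.9) of them, also chosen after seeing the data.

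Pglyrp1 was found in lymphocytes too. T cells were at 163 CPM (147 to 181) in library 1 and at 28.8, 34.2 and 34.3 in libraries 2 to 4, with overlap among the last 3. NK cells were at 391 CPM (18 cells) in library 1 and 101 CPM (41 cells) in library 4, and libraries 2 and 3 had only 3 and 6 NK cells. Levels were also taken per UMI of S100a8, a gene the neutrophil gate used, so that the neutrophil ratio is low by the rule. On that scale Pglyrp1 in T cells was 32.2, 19.7, 11.3 and 11.3 times its neutrophil value in libraries 1 to 4. Lcn2 was at 23.7, 13.7, 2.28 and 4.83 times and Hcar2 at 2.11 to 2.62 times. Retnlg was at 0.356 to 1.32 times, G0s2 at 0.653 to 2.08 and Wfdc21 at 0.473 to 2.53, and the other members had 0 to 7 UMIs in the T cells of a library.

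**Figure D5:**
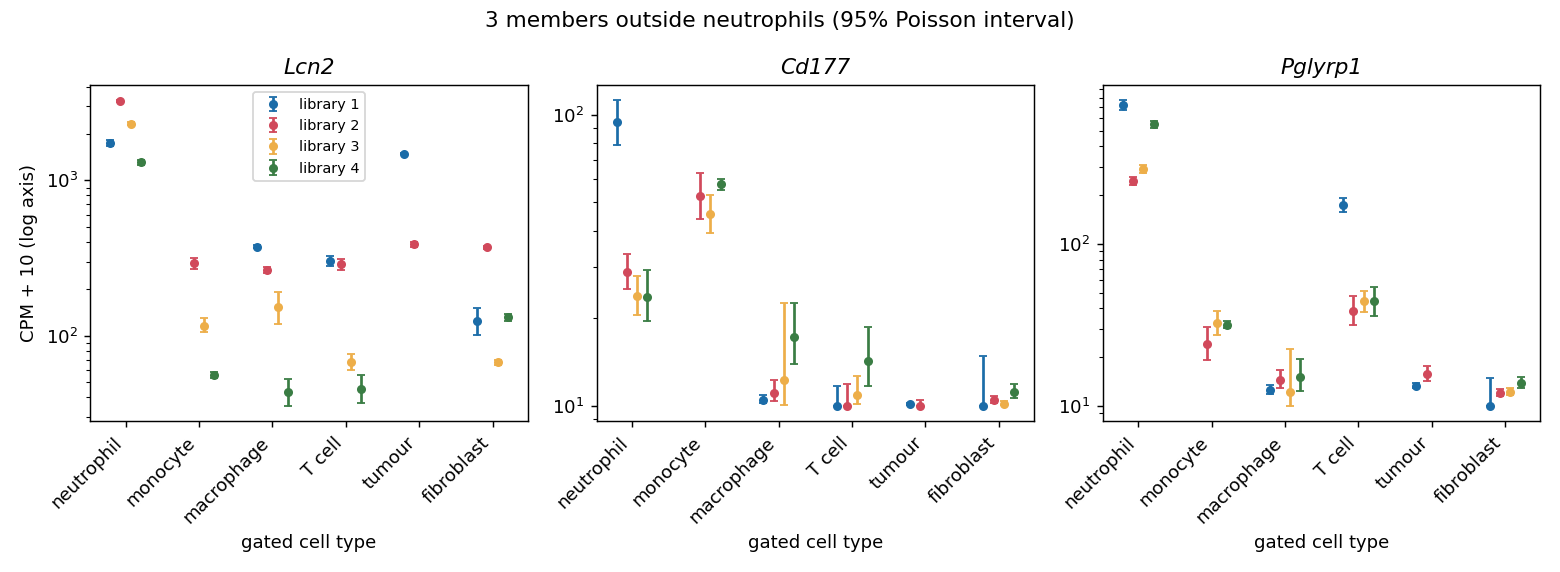
CPM + 10 on a log axis of Lcn2, Cd177 and Pglyrp1 by gated cell type (x axis), with 1 colour a library, 95% Poisson intervals as bars and types with 50 or more cells. Lcn2 in tumour cells of library 1 reaches 1478 CPM, Cd177 is higher in monocytes than in neutrophils of libraries 2 to 4, and Pglyrp1 in T cells is highest in library 1.

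Within neutrophils, members were scored for being found in the same cell. For each pair, the thinned cells with both genes were divided by the number expected if detection of each were independent inside that library. Of 45 pairs, 20 had at least 5 expected cells in every library, and of these 6 were above 1 and 2 below 1 in all 4 libraries, and 12 changed side. The 6 were Lcn2 with Retnlg (1.12 to 1.24), Lcn2 with Wfdc21 (1.21 to 1.25), Retnlg with Wfdc21 (1.21 to 1.28), Retnlg with Cd177 (1.01 to 1.41), Retnlg with G0s2 (1.04 to 1.10) and Wfdc21 with Pglyrp1 (1.06 to 1.35). Below 1 were Hcar2 with Pglyrp1 (0.859 to 0.992) and Hcar2 with Cd177 (0.619 to 0.953). Lcn2, Retnlg and Wfdc21 were the members whose pairs with each other were all above 1, and Hcar2 had no pair above 1 in all libraries. Most of these ratios are close to 1, and every pair with Ltf, Camp or Ngp had too few cells. Retnlg with Cd177 in library 2 was 6 cells against 5.92 expected. No share over all gene pairs stands beside these counts, which describe the pairs without a test.

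Each member was also set against the genes of the fixed lists. Of 29 genes with enough cells beside Retnlg, 7 were above 1 and 5 below 1 in all libraries. For Wfdc21 it was 9 and 5 of 30, for Lcn2 4 and 2 of 32, for Pglyrp1 6 and 5 of 29, for G0s2 8 and 2 of 32, for Hcar2 6 and 3 of 32 and for Cd177 3 and 0 of 17, and the rest changed side. Retnlg, Wfdc21 and Lcn2 were each found with Mmp8, a collagenase of specific granules, above expectation in all libraries, at 1.17 to 1.47, 1.32 to 1.55 and 1.16 to 1.40. Retnlg was found less than expected with Icam1 (0.460 to 0.919) and Cxcr4 (0.823 to 0.935), which mark activated and aged neutrophils. Its ratio with Cd274, which encodes the checkpoint ligand PD-L1, was 0.839, 0.896, 0.961 and 1.03 in libraries 1 to 4 and so changed side, as did those with Ccl3 (0.716 to 1.01), Cxcl2 (0.978 to 1.01) and Vegfa (0.664 to 1.06). Pglyrp1 was below 1 with Cd274 (0.570 to 0.927) and Ccl4 (0.808 to 0.906) in every library and above it with Hp (1.09 to 1.43). Wfdc21 was below 1 with Cxcr4 (0.618 to 0.883) and Cd274 (0.753 to 0.970). Hcar2 was above 1 with Ccl3 (1.03 to 1.11) and below it with Hp (0.857 to 0.987) and Anxa1 (0.929 to 0.987). With Olfm4, on the specific granule list like Hp and Anxa1, Hcar2 was above 1 (1.03 to 1.16). Its ratios with Cd274 (0.949 to 1.18) and Cxcr4 (0.918 to 1.08) changed side. G0s2 was above 1 with Trem1 (1.03 to 1.07) and Il1r2 (1.02 to 1.04). It was below 1 with Pnpla2 (0.906 to 0.991), the lipase that its product inhibits, with 56 cells against 56.5 expected in library 2. These list counts too stand without a share over all gene pairs and were not tested.

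Over 26 combinations of cell type and library with at least 50 cells, the genes of most similar level to each member were sought among 14411 genes by Pearson's r of log2(CPM + 10). These points share libraries, and r describes them without a test. Ltf was most like Prok2 (0.97), Ceacam10 (0.96) and Gm11714 (0.93). Ngp was most like Ceacam10 (0.82), Camp (0.80) and Ltf (0.79), and Camp was most like Ngp (0.80), Ltf (0.73) and Prok2 (0.70). In the neutrophils of library 1 a single cell held 398 of 439 Camp, 560 of 986 Ngp and 60 of 99 Ltf UMIs. In the fibroblast-gated cells of library 2, 2 cells held 93.9% of the Camp UMIs. How far these r values rest on such cells was not tested. Retnlg followed Ly6g (0.97), BC117090 (0.97) and S100a8 (0.96). Wfdc21 followed Stfa2l1 (0.98), S100a9 (0.97) and S100a8 (0.97), and G0s2 followed S100a9 (0.98), Hdc (0.98) and Acod1 (0.97). The neutrophil gate used S100a8 and S100a9, so both are high in the neutrophil points by the rule. Hcar2 was nearest to Chil1, Trem1 and B230303A05Rik (0.96 each). Lcn2 was nearest to Echdc3 (0.87), Stfa3 (0.86) and Pnrc1 (0.84), Cd177 to AI839979 (0.91), Gpat3 (0.90) and Tarm1 (0.90), and Pglyrp1 to Suco (0.93), Ppp1r3b (0.90) and Slc2a3 (0.90).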

How the data were processed

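Single-cell 3′ RNA sequencing was done by the study on CD45+ cells of 4 tumour samples. The authors deposited a single matrix of raw UMI counts made with Cell Ranger, which covered alignment, cell calling, UMI counting and the joining of libraries. The version is 3.0.2 in the extract protocol, 6.1.2 in the matrix header and 2.1.1 in the submitters' processing notes, which also name mm10. No source used here states whether depth was equalised. All 55450 gene IDs were found in GENCODE vM21 (GRCm38), used for coordinates. The protocol states 15603 cells after its filters, against 33064 barcodes in the files and 32133 after the stated limits on genes and mitochondrial UMIs.

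Barcode suffixes were used as libraries. Gates on marker UMIs named the cells, those outside the neutrophil gate that passed several gates (1103) were left out, and 12473 passed none. Of the neutrophils, 122 also passed another gate. No doublet caller was run. Counts were summed by type and library and divided to CPM, with exact Poisson intervals for levels and exact (Clopper-Pearson) binomial intervals for shares, both at 95% and for counting error only. Thinning drew 1000 UMIs per cell without replacement (seed 1), leaving out 231 shallower neutrophils. Folds used log2(CPM + 10) and at least 50 UMIs over both types, or at least 10 thinned UMIs in each library. Named genes were the members, examples of fixed lists, the 3 genes of highest r per member (at least 200 UMIs) and the 10 largest differences each way between granule-positive and granule-negative neutrophils. Members and lists were chosen with earlier results of these data known. Intervals, the 4-fold limit and the co-detection ratio of 1 pair were tested on simulated data, and thinning on neutrophils of these data. The 4-fold check used well-counted genes of library 2 and centred the differences on their median, which the analysis did not. The 2-fold rule for granule-positive neutrophils was not tested in this way. Alternatives changed the gate, the cell filters, the CPM added, the UMI minimum, thinning, the detection limit and the libraries. Python 3.11.15, numpy 2.4.6, scipy 1.17.1, pandas 2.3.3 and matplotlib 3.10.9 were used.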

Additional observations from a re-analysis of the deposited data

Results flagged for a closer look

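In library 1, cells outside the neutrophil gate but with S100a8 and S100a9 at 1% or more held 2965 UMIs of Ltf, Camp and Ngp, against 1524 in the gated neutrophils. This was noted because the signal lies in cells that the neutrophil values do not use. The cells outside the gate numbered 404, and 7 of them had at least 10 such UMIs, against 12 in the gate. Of the 7, 4 had no Csf3r UMI.

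Camp had 2548 UMIs in the 1211 fibroblast-gated cells of library 2, also outside the neutrophil values, against 0, 36 and 13 in those of libraries 1, 3 and 4. A pair of cells held 1475 and 917 of these UMIs (93.9%), or 3.31% and 1.96% of their own UMIs. Neither had a Ltf or Ngp UMI, and they had 2 and 6 S100a8 UMIs. The fibroblast gate itself required that a cell had no Ptprc UMI. They held 618 and 502 Col1a1 UMIs, 285 and 613 Prg4 UMIs and 396 and 717 Thbs4 UMIs. In the 8 fibroblast-gated cells of this library with at least 5 Camp UMIs, a limit chosen after the values were seen, Prg4, which encodes lubricin, was at 8650 CPM against 416 in the other 1203. Thbs4 was at 10929 against 392 CPM and Col1a1 at 11746 against 11543. The cause was not tested.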

How the results depend on the processing

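The 6 members at least 4-fold above monocytes, macrophages and T cells kept that count within 1.5 times under all 15 alternatives run for each. Against tumour cells the count went from 5 to 9 with 1 CPM added and, leaving out each library in turn, lay between 5 and 9. The 9 came without library 2, which leaves library 1 alone. The number of gated neutrophils was 3395 to 4933 with a library left out. The share of member UMIs in gated neutrophils, 33.7%, was 47.2% without the Csf3r requirement, 24.8% with S100a8 and S100a9 at 5% or more, 39.3% without the use of Ly6c2 and 32.6% without neutrophils passing another gate. With a library left out it was 29.4% to 44.4%, and 46.7% without libraries 1 and 2, an alternative chosen after seeing the data. The share of neutrophils with Ltf, Camp or Ngp, 3.59% over all libraries, was 1.91% at 500 UMIs, 6.05% without thinning and 0.543% when 2 UMIs were required, and 2.77% to 4.25% with a library left out.

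Genes called higher in granule-positive neutrophils, 23, numbered 42 without neutrophils passing another gate and 0 with 50 CPM added. Those called lower, 205, numbered 1 with 50 CPM added and 3 without thinning. With a library left out they were 23 to 624 higher and 205 to 1362 lower, the largest without library 2 (624 and 1362), and without library 3 474 and 965, where a single library remained to meet the rule. No value could be had at 500 UMIs or with 2 UMIs required, since no library kept 50 positive cells. Pairs above expectation, 6, numbered 14 without thinning and 6 to 10 with a library left out, 10 of them without library 2. Pairs below it, 2, fell to 1 at 500 UMIs, without thinning, with 2 UMIs required and without neutrophils passing another gate, and were 1 to 2 with a library left out, the 1 without library 2. The cause was not tested. Shares of cells with Ltf, Camp or Ngp moved with depth and with the UMIs required, as above, and the median neutrophil had 1842 UMIs. No paired analysis was possible because no library could be tied to a numbered sample.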

Other observations

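Pglyrp1 in T cells differed with Foxp3, the transcription factor of regulatory T cells, in a division of the cells made after the values were seen. T cells with a Foxp3 UMI were at 272, 106, 118 and 131 CPM in libraries 1 to 4 (27, 24, 63 and 15 cells), against 156, 9.05, 17.1 and 28.6 CPM in those without. The intervals did not overlap in any library (190 to 376 against 140 to 175 in library 1). They cover counting error only and leave out the spread between cells. The Foxp3-positive cells held 36, 42, 66 and 12 Pglyrp1 UMIs, and the difference was not tested. Thinned to 1000 UMIs, 29.6%, 33.3%, 15.9% and 13.3% of the Foxp3-positive cells had a Pglyrp1 UMI, against 16.4%, 1.35%, 2.22% and 2.08%. The high Pglyrp1 of T cells without Foxp3 was seen in library 1, where 227 of 335 T cells had a Cd8a UMI, against 3, 10 and 7 in libraries 2 to 4. In library 1, T cells with and without a Cd8a UMI were at 164 and 162 CPM.

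Cd177 in monocytes was higher in cells with a Chil3 UMI, at 63.2, 44.5 and 63.3 CPM in libraries 2 to 4 against 29.1, 28.7 and 28.8 without. The intervals overlapped in library 3 (33.8 to 57.5 against 21.2 to 38.1) and were apart in libraries 2 and 4. No test was made of these values.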
